A study of Rattus norvegicus with 8 samples.

Results

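The liver X receptors LXRα (Nr1h3) and LXRβ (Nr1h2), their partner the retinoid X receptor RXRα (Rxra) and 7 genes known as LXR targets were read in rat liver. The targets were the cholesterol exporters Abca1 and Abcg1, the biliary sterol exporters Abcg5 and Abcg8, and Mylip, Smpdl3a and Pltp. Of the last 3, Mylip acts on lipoprotein uptake, Pltp acts on plasma lipids and Smpdl3a is a secreted phosphodiesterase. They were chosen by name, as 10 of the 14217 genes to which the platform annotation used here gives a probe set of their own. All 16 probe sets that carry 1 of these symbols and no other were read, of 31042 on the array that are not controls.

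The livers came from male Sprague-Dawley rats, all gavaged for 3 days and taken 24 h after 1 injection into the muscle, and the values are log2 signals of 8 Affymetrix rat genome arrays, 2 in each group. Rats of the Dex group were gavaged with vehicle and injected with dexamethasone at 1.5 mg/kg, rats of the GW3965 group were gavaged with GW3965 at 50 mg/kg and injected with saline, rats of the Dex+GW3965 group received both compounds, and rats of the vehicle group received the gavage vehicle and saline. The study asked how LXR activation acts on glucocorticoid signaling in liver, and the comparisons below read the receptors and export targets of the LXR side under each compound and under both. Within a group the arrays are labelled a and b of 1 liver number, whereas the methods speak of 2 animals, so p-values may measure only the spread between arrays.

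LXRs sit on DNA as heterodimers with RXR. Oxysterols, which are oxidized forms of cholesterol, bind them and switch on genes that move cholesterol out of cells, into bile and between lipoproteins. In liver LXRα is the main isotype, and LXR agonists there are also known to raise genes of fatty acid synthesis. GW3965 is a man-made ligand that activates both LXRα and LXRβ, and dexamethasone is a man-made steroid ligand of the glucocorticoid receptor (GR).

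Abcg5 and Abcg8 lie head to head on chromosome 6 of the rat genome, Abcg5 at 15717936 to 15743376 and Abcg8 at 15698448 to 15717730 (RefSeq, build GRCr8), with starts 206 bases apart. The 205 bases between them, chr6:15717731-15717935, are shown because both genes are read from this 1 stretch and their signals moved together. They are printed 5′ to 3′ on the plus strand, toward Abcg5, with matches to a GR hexamer (TGTTCT) and to a GATA motif (AGATAA) in capitals.
Abcg5 and Abcg8 interval: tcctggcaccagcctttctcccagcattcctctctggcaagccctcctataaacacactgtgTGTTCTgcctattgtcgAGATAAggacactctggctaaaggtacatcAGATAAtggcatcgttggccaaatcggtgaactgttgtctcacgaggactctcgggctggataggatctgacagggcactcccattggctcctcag
The GR hexamer stands 143 bases before the start of Abcg5 and 68 before that of Abcg8, and the GATA motifs stand 126 and 96 bases before Abcg5. Over 33469 RefSeq promoters of 300 bases each, searched on both strands, TGTTCT was found in 20.7% and AGATAA in 11.6%. Neither the nuclear receptor hexamer AGGTCA, found in 16.2% of all promoters, nor the DR4 element, which is that hexamer repeated after 4 free bases, was matched in the windows of these genes. The windows of Abcg5 and Abcg8 share 295 of their 300 bases, so their matches are the same letters. The AGATAA motif and the Abca1 element below were added to the search after the values were seen.

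Abca1 lies on the minus strand of chromosome 5, at 72473676 to 72596563. The 30 bases shown, chr5:72596521-72596550, lie on the minus strand and hold the stretch in which the LXR element of the human and mouse promoters is known. The letters searched, TGACC and TAACC, and the 5 free bases between them are in capitals. This pattern cuts each repeat to its first 5 bases. Read as hexamers, TGACCG and TAACCC, the repeats stand 4 free bases apart, the spacing of a DR4 element. Neither hexamer is AGGTCA on either strand, so the DR4 search did not match here.
Abca1 promoter site: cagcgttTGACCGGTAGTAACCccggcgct
Positions in a promoter window are counted from the transcript start that RefSeq's window uses, which for Abca1 is 72596473, 90 bases inside the outer end of the gene, so the 30 bases run from position -77 to -48 of that start and lie within the annotated gene. For Nr1h3 the start used lies 8824 bases inside the gene and for Mylip 19 bases, and for the other members with a window it is the gene's outer end. The element was found in 18 of 33469 promoters, or 0.0538%. The Abca1 window also held 1 TGTTCT, at position -81. Of the other members, Smpdl3a held 2 AGGTCA and 1 TGTTCT, Nr1h3 held 1 AGATAA, and the windows of Nr1h2, Rxra, Mylip and Pltp held no match to any motif searched. A promoter was at hand for 9 of the 10 members, Abcg1 being the exception. A match is a run of letters and says nothing of binding.

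Of the 16 probe sets, 14 exceeded the array median on at least 2 arrays and were tested with limma together with all 16253 probe sets that did so, with p-values adjusted over this whole set (Benjamini-Hochberg, threshold 0.05). The other 2, of Nr1h2 and Abcg1, are described by their values. Under dexamethasone, 3 of the 14 were higher than vehicle, where 17.2% of all tested probe sets were higher, and 8 were lower, where 24.7% of all were lower. Under GW3965, 4 were higher (5.93% of all) and 5 lower (14.5% of all), and under Dex+GW3965, 3 were higher (15.6% of all) and 7 lower (21.2% of all). The 10 genes were thus spread over both directions in each comparison with vehicle, and the median log2 difference over the 14 was -0.29 under dexamethasone, -0.06 under GW3965 and -0.24 under Dex+GW3965, against -0.01, -0.03 and -0.02 over all tested probe sets. Abca1 supplied 4 of the 14 and Abcg1 supplied 2, so the counts are not counts of genes: a call was made for 8, 6 and 7 of the 10 genes under dexamethasone, GW3965 and Dex+GW3965. The 3 comparisons with vehicle share the vehicle arrays. The methods' t-test was run on 2 log ratios per comparison, array a against a and b against b, which leaves 1 degree of freedom. With Benjamini-Hochberg adjustment it called none of the 14 against vehicle. At an unadjusted p under 0.05 it called 4, 4 and 1 of them, beside 2909, 1896 and 2333 of all 16253. With quantile normalization between arrays the calls over all probe sets under GW3965 were 1209 higher and 1504 lower, in place of 963 and 2362.

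The receptors moved little. In whole liver, fewer cells of a type and less RNA per cell cannot be told apart. Nr1h3 encodes LXRα and lies on chromosome 3, at 97614616 to 97632053. Its log2 signals were 9.33 and 9.38 in Dex livers, 9.43 and 9.45 in GW3965 livers, 9.41 and 9.44 in Dex+GW3965 livers and 9.53 and 9.49 in vehicle livers. All 6 arrays of treated rats lay below both vehicle arrays, and the drop passed the test under dexamethasone alone, by 0.16 on the log2 scale (log2 difference -0.16, SE 0.05, n = 2 per group, adjusted p = 0.012 from limma). The difference from vehicle was -0.07 under GW3965 (95% interval -0.17 to 0.03, adjusted p = 0.35 from limma) and -0.09 under Dex+GW3965 (-0.19 to 0.01, adjusted p = 0.17 from limma). The call under dexamethasone was lost without Dex array a (adjusted p = 0.10 from limma) or vehicle array a (0.064), with quantile normalization (0.12) and without the intensity trend in the fit (0.055).

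Nr1h2, which encodes LXRβ, lies on chromosome 1 at 104178483 to 104183863 and has 2 probe sets. On 1370208_at its signals were 8.03 and 7.97 in Dex livers, 8.04 and 8.14 in GW3965 livers, 8.11 and 7.94 in Dex+GW3965 livers and 7.89 and 7.99 in vehicle livers. Its differences from vehicle, 0.06, 0.15 and 0.09, did not pass the test (95% intervals -0.09 to 0.21, -0.00 to 0.31 and -0.07 to 0.24, adjusted p = 0.54, 0.16 and 0.40 from limma). The other probe set, 1389854_at, stood between 3.96 and 4.30 on all 8 arrays, below 5.49, the mean of the arrays' medians, which is taken here as the level of background.

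Rxra encodes RXRα, the partner of LXRs and of many other nuclear receptors, and lies on chromosome 3 at 31387892 to 31474415. Dex livers had 7.45 and 7.51, GW3965 livers 7.23 and 7.26, Dex+GW3965 livers 7.30 and 7.30 and vehicle livers 7.18 and 7.20. Dexamethasone raised it by 0.29, or 1.22-fold (SE 0.07, n = 2 per group, adjusted p = 0.0039 from limma). The differences of 0.06 under GW3965 (-0.10 to 0.21, adjusted p = 0.65 from limma) and of 0.11 under Dex+GW3965 (-0.05 to 0.27, adjusted p = 0.27 from limma) did not pass. Dex+GW3965 livers lay below Dex livers on both arrays, with a difference of -0.18 that did not pass either (-0.34 to -0.02, adjusted p = 0.093 from limma).

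**Figure D1:**
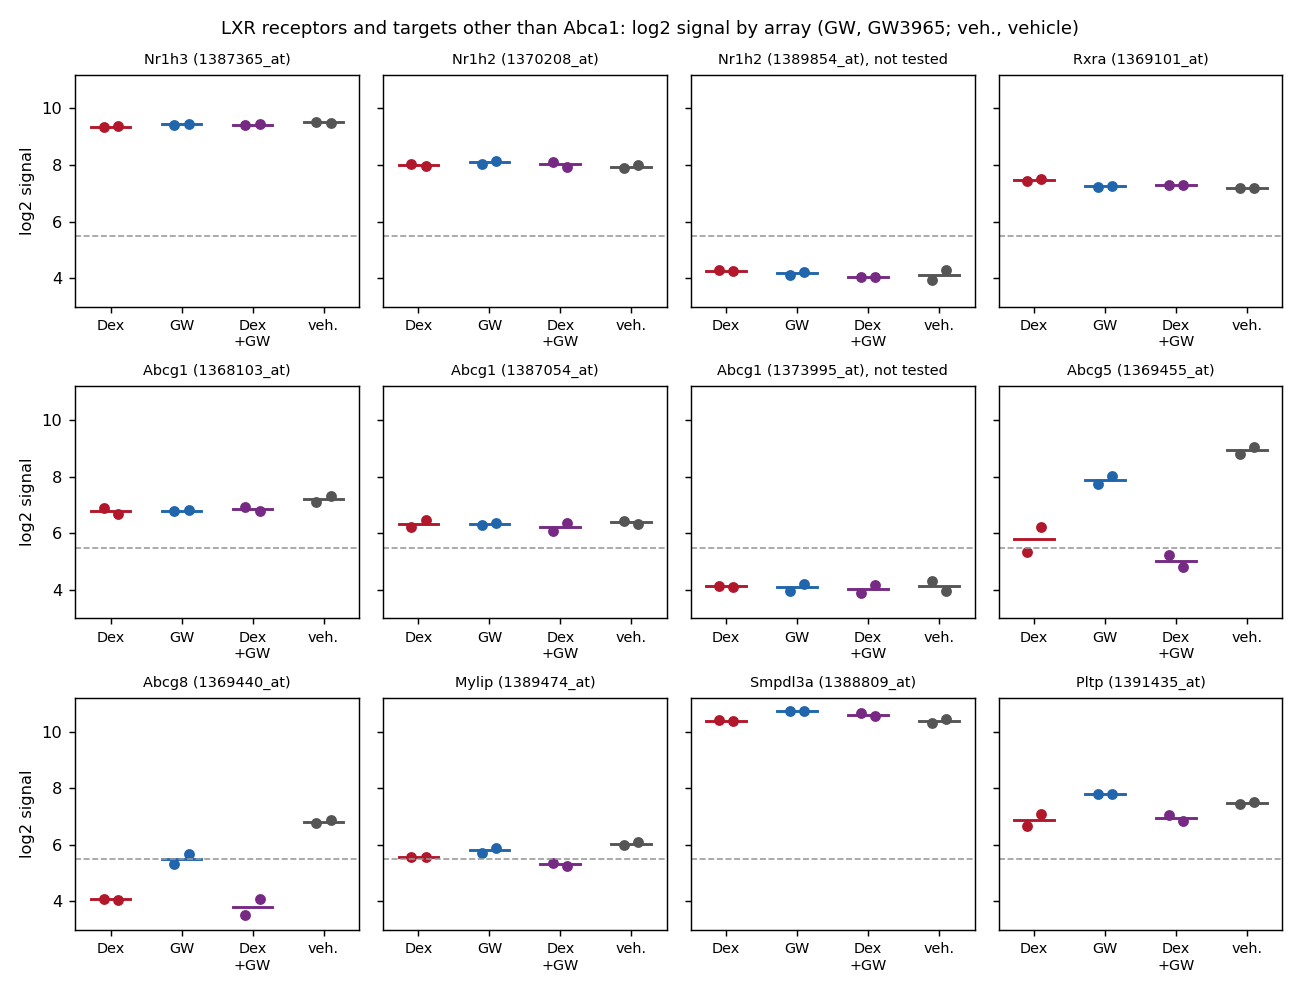
Log2 signal of the 12 probe sets of the members other than Abca1 on each of the 8 arrays, with 1 point per array, a line at each group's mean and a dashed line at 5.49, the level taken as background. The receptors and Smpdl3a stay within narrow ranges, Abcg5 and Abcg8 are highest in vehicle livers and lowest in Dex+GW3965 livers, and the 2 probe sets that were not tested lie below the dashed line on every array.

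Abca1, which loads cellular cholesterol and phospholipid onto apolipoprotein A-I, had 4 probe sets that moved in opposite directions. Under each treatment 1382431_at and 1394490_at were higher than vehicle and 1383355_at and 1384381_at were lower. Over the 8 arrays the first 2 correlated with each other (Pearson's r = 0.987) and so did the other 2 (r = 0.857), whereas r between the pairs lay from -0.963 to -0.923. These r values describe 8 arrays that share their treatments. All 4 carry the symbol Abca1 alone, and the sources used here do not say which part of the transcript each one reads.

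On 1382431_at the signals were 9.75 and 9.87 in Dex livers, 9.25 and 9.25 in GW3965 livers, 9.18 and 9.18 in Dex+GW3965 livers and 7.57 and 7.87 in vehicle livers. The order was thus Dex, then GW3965 and Dex+GW3965 close together, then vehicle, with no overlap between vehicle and any treated group. Dexamethasone raised it by 2.09, or 4.26-fold (SE 0.07, n = 2 per group, adjusted p = 1.4e-13 from limma), GW3965 by 1.53, or 2.89-fold (adjusted p = 8.7e-11 from limma), and Dex+GW3965 by 1.46, or 2.75-fold (adjusted p = 2.8e-11 from limma). With both compounds the level was below that under dexamethasone alone, with a log2 difference of -0.63 (SE 0.07, adjusted p = 4.7e-06 from limma), and it differed from GW3965 alone by -0.07 (-0.23 to 0.08, adjusted p = 0.50 from limma).

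On 1394490_at Dex livers were again highest and vehicle livers lowest. Dex livers had 8.29 and 8.19, GW3965 livers 7.58 and 7.68, Dex+GW3965 livers 7.69 and 7.73 and vehicle livers 6.52 and 6.79. The rises were 1.59 (3.00-fold), 0.97 (1.96-fold) and 1.05 (2.07-fold) under dexamethasone, GW3965 and Dex+GW3965 (SE 0.09, n = 2 per group, adjusted p = 6.1e-11, 2.3e-07 and 2.1e-08 from limma). Dex+GW3965 again lay below Dex (-0.53, adjusted p = 1.8e-04 from limma) and differed from GW3965 by 0.08 (-0.10 to 0.26, adjusted p = 0.53 from limma).

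The falling probe sets showed smaller shifts. On 1383355_at the signals were 8.56 and 8.52 in Dex livers, 8.55 and 8.60 in GW3965 livers, 8.64 and 8.57 in Dex+GW3965 livers and 9.03 and 9.05 in vehicle livers. The 3 treated groups lay side by side about the same distance below vehicle (log2 differences -0.50, -0.47 and -0.44, SE 0.05, n = 2 per group, adjusted p = 7.2e-07, 7.6e-06 and 4.7e-06 from limma), and Dex+GW3965 differed from Dex by 0.06 (-0.05 to 0.18) and from GW3965 by 0.03 (-0.09 to 0.14). On 1384381_at Dex livers had 5.76 and 5.92, GW3965 livers 6.08 and 6.01, Dex+GW3965 livers 6.19 and 6.20 and vehicle livers 6.60 and 6.42. Its differences from vehicle were -0.67, -0.47 and -0.31 (SE 0.11, adjusted p = 5.1e-05, 0.0043 and 0.027 from limma), and Dex+GW3965 lay above Dex by 0.35 (adjusted p = 0.022 from limma). Of these, the GW3965 call was lost without vehicle array a (adjusted p = 0.052 from limma) or GW3965 array b (0.053), the Dex+GW3965 call without vehicle array a (0.20) or either Dex+GW3965 array (0.092 and 0.092), and the call against Dex without Dex array a (0.17) or either Dex+GW3965 array (0.079 and 0.095). A mean over the 4 probe sets gave 0.63, 0.39 and 0.44 against vehicle, and joins opposite shifts.

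**Figure D2:**
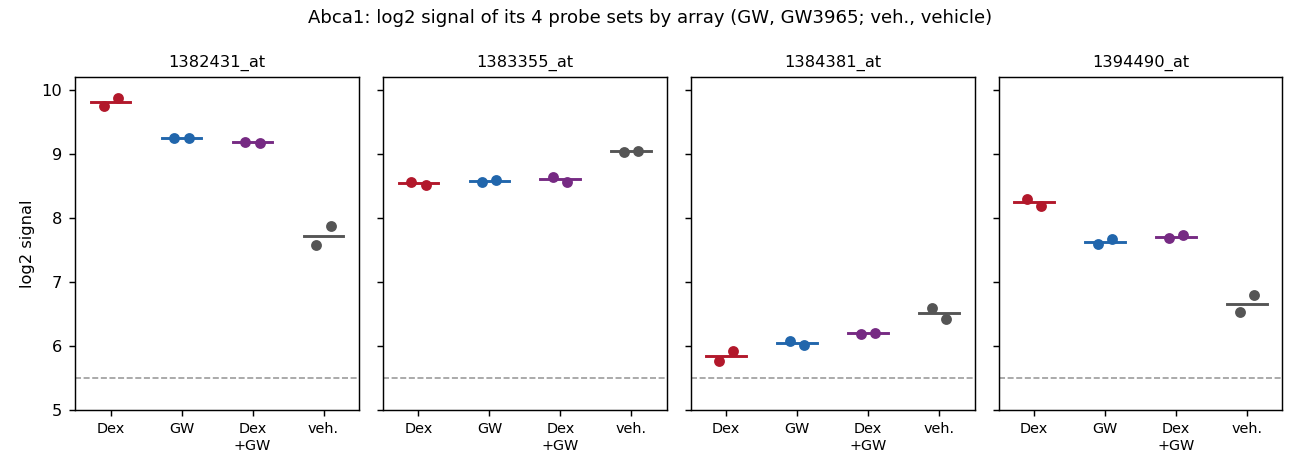
Log2 signal of the 4 Abca1 probe sets on each of the 8 arrays, with 1 point per array, a line at each group's mean and a dashed line at 5.49. Vehicle livers are lowest on 1382431_at and 1394490_at and highest on 1383355_at and 1384381_at, and Dex+GW3965 livers lie next to GW3965 livers on all 4.

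Abcg1, which passes cholesterol to high-density lipoprotein and is best known from macrophages, lies on chromosome 20 at 9128056 to 9184312 and has 3 probe sets. On 1368103_at the signals were 6.89 and 6.69 in Dex livers, 6.78 and 6.82 in GW3965 livers, 6.93 and 6.80 in Dex+GW3965 livers and 7.12 and 7.30 in vehicle livers. All treated arrays lay below both vehicle arrays, and the differences of -0.42, -0.41 and -0.34 passed (SE 0.10, n = 2 per group, adjusted p = 0.0018, 0.0056 and 0.0089 from limma). Without vehicle array b the GW3965 and Dex+GW3965 calls were lost (adjusted p = 0.070 and 0.11 from limma), and so were they without GW3965 array a (0.052) and Dex+GW3965 array b (0.090). On 1387054_at the arrays of all 4 groups overlapped between 6.07 and 6.46, and no comparison passed (log2 differences from vehicle -0.05, -0.06 and -0.16). A mean of both probe sets gave -0.23 under GW3965, which did not pass (adjusted p = 0.076 from limma). The third probe set, 1373995_at, stood between 3.88 and 4.30, below background on every array.

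The biliary pair Abcg5 and Abcg8 showed the largest falls among the members. The 2 genes encode the subunits of 1 dimer, which secretes cholesterol and plant sterols into bile. Abcg5 had 5.34 and 6.23 in Dex livers, 7.73 and 8.03 in GW3965 livers, 5.24 and 4.81 in Dex+GW3965 livers and 8.81 and 9.04 in vehicle livers. The groups did not overlap and stood in the order vehicle, GW3965, Dex, Dex+GW3965, with the Dex arrays on either side of background. GW3965 lowered Abcg5 2.07-fold (log2 difference -1.05, SE 0.20, n = 2 per group, adjusted p = 0.0011 from limma) and dexamethasone 8.83-fold (-3.14, adjusted p = 5.6e-10 from limma). With both compounds the group mean, 5.03, was below background, so that the drop was at least 10.8-fold against vehicle (adjusted p = 3.9e-11 from limma) and at least 5.24-fold against GW3965 (adjusted p = 2.8e-09 from limma).

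Abcg8 had 4.09 and 4.05 in Dex livers, 5.33 and 5.68 in GW3965 livers, 3.53 and 4.09 in Dex+GW3965 livers and 6.77 and 6.87 in vehicle livers. Vehicle livers were the 1 group clearly above background, the GW3965 mean of 5.50 stood at its edge, and both groups given dexamethasone lay below it. GW3965 lowered Abcg8 2.49-fold (log2 difference -1.32, SE 0.16, n = 2 per group, adjusted p = 1.4e-05 from limma). Against vehicle the drop was at least 2.51-fold under dexamethasone and under Dex+GW3965 alike (adjusted p = 2.3e-10 and 8.7e-11 from limma), a bound set by background and not an equal response. Abcg8 passed the filter on low values through its vehicle arrays and GW3965 array b alone. Its p-values against vehicle are therefore not independent of that filter. Against GW3965 the measured level under both compounds was lower as well (adjusted p = 2e-07 from limma), but with the GW3965 mean at the edge of background the bound was 1.01-fold.

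Abcg5 and Abcg8 followed each other over the arrays (Pearson's r = 0.956 over 8 arrays that share their treatments). The step from Dex to Dex+GW3965 could be read for Abcg5 alone, where the measured log2 difference was -0.76 and at least 1.22-fold with the level of background as floor (adjusted p = 0.011 from limma). It rested on single arrays: without Dex array b the difference was -0.31 (adjusted p = 0.24 from limma), without Dex array a it was -1.21 (5.6e-05), and without Dex+GW3965 array b it was -0.54 (0.14). The call was also lost without the intensity trend in the fit (adjusted p = 0.097 from limma). For Abcg8 both groups were below background, and no fold is given.

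**Figure D3:**
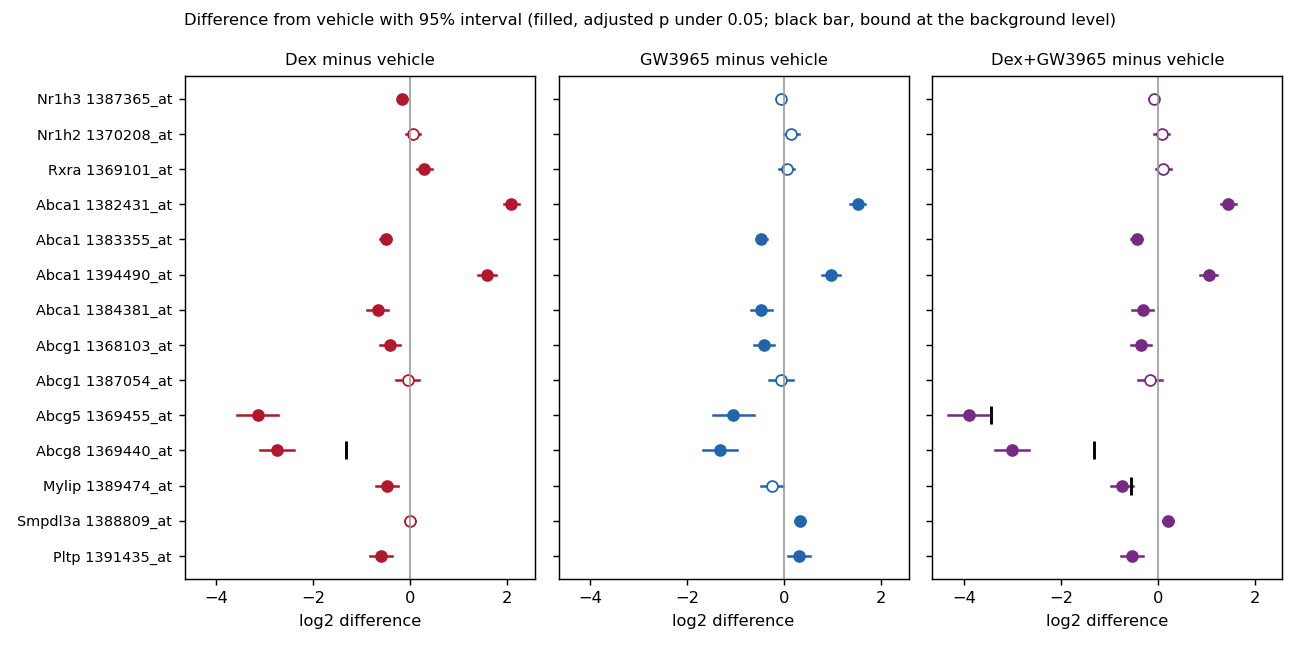
Log2 difference from vehicle of the 14 tested probe sets under Dex, GW3965 and Dex+GW3965, with 95% intervals from limma, n = 2 arrays per group. Filled points passed an adjusted p of 0.05, open points did not, and a black bar marks the bound where 1 of the groups lay below background. Abcg5 and Abcg8 lie farthest to the left in all 3 panels, and Abca1 lies on both sides of 0.

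Smpdl3a, Pltp and Mylip each had a pattern of their own. Smpdl3a, a secreted phosphodiesterase that LXR agonists are known to raise in macrophages, lies on chromosome 20 at 37679004 to 37701979. Its signals were 10.42 and 10.36 in Dex livers, 10.72 and 10.72 in GW3965 livers, 10.66 and 10.55 in Dex+GW3965 livers and 10.32 and 10.46 in vehicle livers. Both groups given GW3965 lay above both groups not given it. GW3965 raised Smpdl3a 1.26-fold (log2 difference 0.33, SE 0.05, n = 2 per group, adjusted p = 9.8e-05 from limma), Dex+GW3965 raised it 1.16-fold (0.22, adjusted p = 0.0021 from limma), and dexamethasone alone gave a difference of 0.00 (-0.10 to 0.11, adjusted p = 0.99 from limma). Against Dex the combined group was higher by 0.21 (adjusted p = 0.0041 from limma), a call that was lost without Dex array b (0.059), Dex+GW3965 array a (0.069) or the intensity trend (0.072). Against GW3965 it gave -0.12 (-0.22 to -0.01, adjusted p = 0.075 from limma), and -0.18 with quantile normalization, which passed (adjusted p = 0.011 from limma). Of the 10 members, Smpdl3a was the 1 gene called higher with GW3965 than without it both in rats given dexamethasone and in rats given saline. Measured differences were above 0 in both settings for Pltp (0.07 and 0.32) and Nr1h2 on 1370208_at (0.02 and 0.15) as well.

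Pltp, the phospholipid transfer protein of plasma, lies on chromosome 3 at 173994162 to 174011982 and moved in opposite directions under the 2 compounds. Dex livers had 6.67 and 7.08, GW3965 livers 7.80 and 7.78, Dex+GW3965 livers 7.05 and 6.85 and vehicle livers 7.45 and 7.50. Dexamethasone lowered it 1.51-fold (log2 difference -0.60, SE 0.11, n = 2 per group, adjusted p = 2.1e-04 from limma) and Dex+GW3965 lowered it 1.44-fold (-0.53, adjusted p = 8.2e-04 from limma), with Dex+GW3965 within 0.07 of Dex (-0.16 to 0.30, adjusted p = 0.70 from limma). Without Dex array a the log2 difference under dexamethasone was -0.39 (adjusted p = 0.0064 from limma). GW3965 alone raised it 1.25-fold (0.32, adjusted p = 0.046 from limma), a call that stood at the threshold and was lost without any 1 of the 4 GW3965 and vehicle arrays (adjusted p = 0.095 to 0.18 from limma), with no filter on low values (0.070) and without the intensity trend (0.14). The groups given GW3965 differed by -0.84 with dexamethasone against without it (adjusted p = 6.2e-06 from limma).

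Mylip, the ubiquitin ligase that marks the LDL receptor for breakdown, lies on chromosome 17 at 19492826 to 19514490 and stood close to background. Its signals were 5.55 and 5.59 in Dex livers, 5.73 and 5.88 in GW3965 livers, 5.35 and 5.26 in Dex+GW3965 livers and 5.99 and 6.11 in vehicle livers. Every array fell in the order vehicle, GW3965, Dex, Dex+GW3965 with no overlap between groups, the same order as for Abcg5. Dexamethasone lowered it 1.39-fold (log2 difference -0.48, SE 0.11, n = 2 per group, adjusted p = 0.0020 from limma), Dex+GW3965 lowered it at least 1.47-fold (adjusted p = 3.8e-05 from limma), and the difference of -0.24 under GW3965 did not pass (-0.48 to -0.01, adjusted p = 0.14 from limma). Among neighbours in this order GW3965 and vehicle did not differ past the threshold, nor did Dex+GW3965 and Dex (measured log2 difference -0.26, -0.50 to -0.03, adjusted p = 0.10 from limma, and 0.048 without the intensity trend), and Dex and GW3965 were not compared.

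Whether GW3965 made the same difference in rats given dexamethasone as in rats given saline was read from the comparison of Dex+GW3965 with Dex, the comparison of GW3965 with vehicle, and the interaction of both compounds, which is the first difference minus the second. Against Dex, 2 member probe sets were higher in Dex+GW3965 (13.4% of all tested were higher) and 3 lower (9.38% of all were lower). Against GW3965, none was higher in Dex+GW3965 (19% of all) and 4 were lower (16.8% of all), which were those of Abcg5, Abcg8, Mylip and Pltp. At an unadjusted p under 0.05 in limma none was higher against GW3965 and 5 were lower. Over all 16253 tested probe sets, 7139 passed at that level in either direction. Against GW3965 the methods' t-test called 2 member probe sets before adjustment, beside 2764 of all tested, and 0 after it. For the interaction, 4 were higher (15.8% of all) and 2 lower (6.93% of all). Over all probe sets the interaction calls were 2571 higher and 1127 lower, and 1836 and 1593 with quantile normalization between arrays.

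All 4 Abca1 probe sets were among these 6. The difference made by GW3965 on 1382431_at was -0.63 in the presence of dexamethasone and 1.53 without it, an interaction of -2.16 (SE 0.10, n = 2 per group, adjusted p = 8.2e-11 from limma). On 1394490_at it was -0.53 and 0.97, an interaction of -1.51 (adjusted p = 7.5e-08 from limma). The falling probe sets had interactions of the other sign, 0.53 on 1383355_at (adjusted p = 8.1e-05 from limma) and 0.82 on 1384381_at (adjusted p = 6.3e-04 from limma). On all 4 the 2 compounds together thus gave less than the sum of the 2 separate changes on the log2 scale.

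The other 2 were Abcg1 on 1368103_at, with 0.48 (adjusted p = 0.016 from limma), and Abcg8, with 1.06 (adjusted p = 0.0030 from limma). The Abcg1 value lost its call without vehicle array b (adjusted p = 0.066 from limma), Dex array b (0.085), GW3965 array a (0.057) or Dex+GW3965 array a (0.064). That of Abcg8 rests on 2 groups below background, where a further fall could not be read, and so does not show that GW3965 acted differently there. For Abcg5 the interaction was 0.29 (-0.31 to 0.89, adjusted p = 0.51 from limma), for Smpdl3a -0.12 (-0.27 to 0.03, adjusted p = 0.25 from limma) and for Pltp -0.25 (-0.57 to 0.08, adjusted p = 0.27 from limma). The receptors gave 0.14 for Nr1h3, -0.13 for Nr1h2 and -0.24 for Rxra, none of which passed. Among the interactions that did not pass on all arrays as deposited, Abcg5 passed without Dex array b (0.74, adjusted p = 0.023 from limma), Pltp without Dex array a (-0.45, adjusted p = 0.024 from limma) and Smpdl3a with quantile normalization (-0.24, adjusted p = 0.023 from limma) or without vehicle array b (-0.19, adjusted p = 0.049 from limma).

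**Figure D4:**
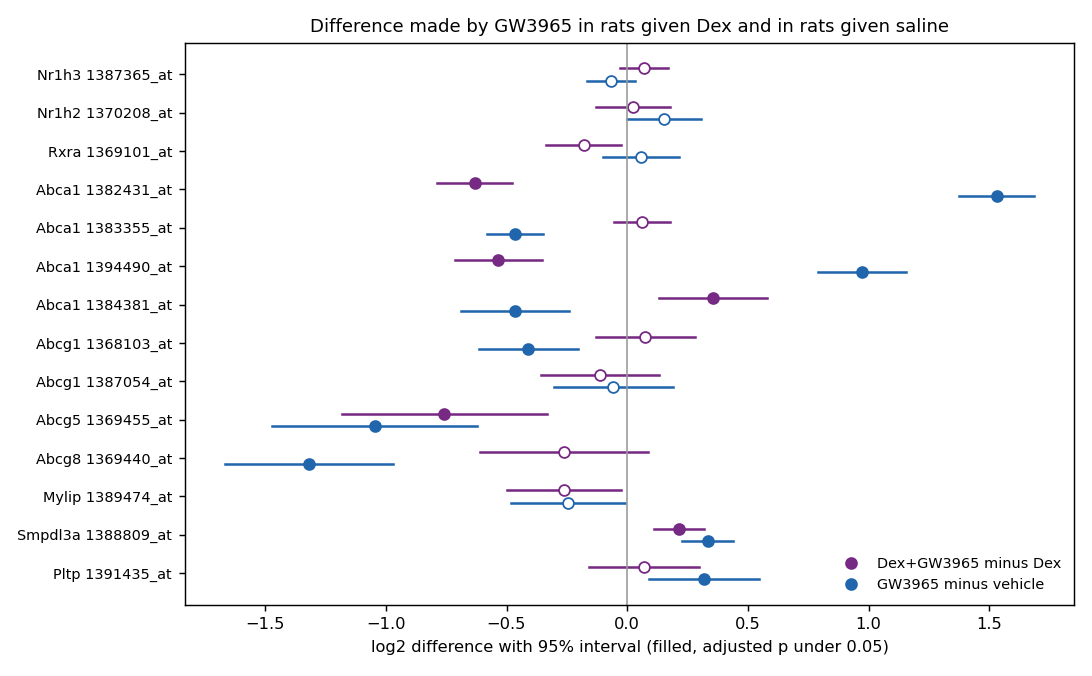
Log2 difference made by GW3965 in the presence of dexamethasone (Dex+GW3965 minus Dex) and in its absence (GW3965 minus vehicle) for the 14 tested probe sets, with 95% intervals from limma, n = 2 arrays per group, and filled points where the adjusted p was under 0.05. The intervals lie on opposite sides of 0 for Abca1 on 1382431_at, 1394490_at and 1384381_at, and on the same side for Abcg5, Mylip and Smpdl3a.

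Further known LXR target genes of rodent liver or macrophages were read from a list of 16, which does not hold every known target. Of these, 13 were tested on their brightest probe set. None of the 13 was higher under GW3965 and 10 were lower (0 and 11 at an unadjusted p under 0.05 in limma, 0 and 9 with quantile normalization), with a median log2 difference of -0.36 against -0.03 over all tested probe sets. Under dexamethasone 2 were higher and 6 lower (median -0.03 against -0.01), and under Dex+GW3965 3 were higher and 4 lower (median -0.06 against -0.02). Cyp7a1, which makes the first step from cholesterol to bile acids and which LXR is known to raise in mice and rats, had 10.08 and 10.08 in Dex livers, 6.99 and 7.00 in GW3965 livers, 8.44 and 8.32 in Dex+GW3965 livers and 10.58 and 10.65 in vehicle livers. It was thus lowest under GW3965 alone, 12.3-fold below vehicle (log2 difference -3.62, SE 0.05, n = 2 per group, adjusted p = 1.9e-17 from limma), and higher with both compounds than with GW3965 alone. The fatty acid synthesis enzymes Fasn and Acaca were lower under GW3965, with -0.38 and -0.53, and higher under dexamethasone, with 1.23 and 1.62, and under Dex+GW3965, with 1.21 and 1.32. Scd, a fatty acid desaturase, was lower in all 3 groups (-0.79 under dexamethasone, -0.72 under GW3965 and -0.47 under Dex+GW3965), and Lpl, the lipoprotein lipase, was lower under GW3965 by a log2 difference of -1.06 and did not pass in the other 2.

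Over all tested probe sets, 17.2% were higher and 24.7% lower under dexamethasone, and 5.93% and 14.5% under GW3965. Under Dex+GW3965 they were 15.6% and 21.2%, and the 3 medians were -0.01, -0.03 and -0.02. These values stand beside the counts of the targets above and of each list and marker set below. Of 16 other RXR isotypes, corepressors and coactivators, 13 were tested. Dexamethasone gave 1 higher and 5 lower (median -0.05), GW3965 none higher and 1 lower (1 and 3 at an unadjusted p under 0.05 in limma, 1 and 0 with quantile normalization, median -0.07), and Dex+GW3965 1 higher and 2 lower (median 0.02). Nrip1, a corepressor of nuclear receptors, was lower under dexamethasone by a log2 difference of -0.99 (SE 0.10, n = 2 per group, adjusted p = 2.9e-07 from limma) and under Dex+GW3965 by -0.69, and gave -0.00 under GW3965. Rxrg, another RXR isotype, was higher under Dex+GW3965 (0.27), as it was against Dex (0.33). Hdac3, a deacetylase of corepressor complexes, was the 1 gene called under GW3965 (-0.18, adjusted p = 0.041 from limma) and was not called with quantile normalization, and Tbl1xr1, of the same complexes, was lower under dexamethasone (-0.21) and Dex+GW3965 (-0.14).

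Of 23 genes of sterol uptake, storage and transport, 15 were tested. Higher and lower calls numbered 4 and 8 under dexamethasone (median -0.28), 1 and 7 under GW3965 (1 and 4 with quantile normalization, median -0.12) and 3 and 6 under Dex+GW3965 (median -0.19). Lipa and Nceh1, both hydrolases of cholesterol esters, were lower in all 3 groups, with -0.67, -0.29 and -0.65 for Lipa and -1.0, -0.33 and -0.44 for Nceh1. Apoa1, the acceptor of cholesterol from Abca1, was higher under dexamethasone (0.50) and Dex+GW3965 (0.49) and gave 0.06 under GW3965. Stard4, a carrier of cholesterol within cells, was lower under dexamethasone (-0.74) and higher under GW3965 (0.32), and Apoa4, an apolipoprotein, was lower under GW3965 (-0.44) and slightly higher under dexamethasone (0.15).

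Of 9 enzymes that make or clear oxysterols, 6 were tested, with 3 higher and 2 lower under dexamethasone (median 0.39), 1 and 1 under GW3965 (median -0.08) and 3 and 1 under Dex+GW3965 (median 0.36). Cyp3a9, a hydroxylase, was higher in all 3 (1.73, 0.65 and 1.74), Cyp39a1, an oxysterol hydroxylase, was lower in all 3 (-0.66, -1.17 and -0.77), and Sult2b1, a sterol sulfotransferase, was at least 1.75-fold higher under dexamethasone and at least 2.02-fold higher under Dex+GW3965. Sult2b1 passed the filter on low values only through arrays of the groups given dexamethasone, so its calls are not independent of that filter. The 7 listed transcription factors of hepatocytes, among them factors known to act on Abcg5 and Abcg8, were all tested. Dexamethasone gave 4 higher and 1 lower (median 0.21), GW3965 1 higher and 4 lower (median -0.32) and Dex+GW3965 2 of each (median 0.01). Hnf4a, a factor of hepatocytes known to act on the promoters of Abcg5 and Abcg8, was lower under GW3965 (-0.32) and Dex+GW3965 (-0.33) and gave -0.08 under dexamethasone. Nr5a2 (-0.34) and Nr0b2 (-0.43) were lower under GW3965 and higher under dexamethasone (0.26 and 0.47), Foxo1 likewise (-0.37 and 0.96), and Nr1h4, the bile acid receptor, was higher in all 3 groups (0.21 under dexamethasone, 0.21 under GW3965 and 0.40 under Dex+GW3965).

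The genes whose pattern over the 8 arrays was most like that of a member were taken from the probe sets whose group means also spanned 1 log2 unit or more, 812 for Abca1 and 813 for the others. Closest to Abca1 on 1382431_at were Dusp1, a phosphatase of MAP kinases (Pearson's r = 0.988), Errfi1, an inhibitor of the EGF receptor (0.985), and Zfp36, which promotes mRNA decay (0.958). Closest to Abcg5 were Islr (0.990), Fam167b (0.989) and Serpine2, a protease inhibitor (0.987), and closest to Abcg8 were Dapk1, a kinase (0.987), Prim1, a subunit of DNA primase (0.983), and Ppm1k, a phosphatase (0.981). These r values rest on 8 arrays in 4 groups and describe the likeness only.

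The markers of liver cells were read beside these results. Between arrays a and b the median absolute difference was 0.0863 to 0.1 log2 units over the 4 groups, with r from 0.997 to 0.998, and array medians lay from 5.48 to 5.52. Alb stood at 14.88 to 14.95 and Ttr at 14.12 to 14.26 on all arrays, and the summed linear signal of 9 tested hepatocyte markers of 10 was 145724 to 147114 in Dex livers, 136896 to 138897 in GW3965 livers, 148544 to 148781 in Dex+GW3965 livers and 140504 to 143536 in vehicle livers. Not all of these 9 were steady: 2 were higher and 3 lower under dexamethasone, 1 and 4 under GW3965, and 3 and 3 under Dex+GW3965. In the same order of groups, Ass1 gave log2 differences from vehicle of 0.66, -0.25 and 0.64, and Hnf4a gave -0.08, -0.32 and -0.33. Abca1, Abcg1 and the LXRs are also known from macrophages. The sum of the 10 tested markers of Kupffer cells and macrophages, of 13 listed, was 4416 to 4482 in Dex livers, 6812 to 6832 in GW3965 livers, 4764 to 4842 in Dex+GW3965 livers and 5194 to 5307 in vehicle livers. It was thus lowest with dexamethasone and highest with GW3965, an order that the group means of Pltp shared and those of Abca1 and Abcg1 did not. Of these 10 markers, 5 were higher and none lower under GW3965 (7 and 0 at an unadjusted p under 0.05 in limma), 1 was higher and 6 lower under dexamethasone, and 1 higher and 6 lower under Dex+GW3965, with Adgre1 below background in both groups given dexamethasone and Clec4f at 10.05 or more on every array. Adgre1 passed the filter on low values only through vehicle and GW3965 arrays. Its lower calls, which are among each 6, are therefore not independent of that filter. Against Dex, Dex+GW3965 gave 4 higher and 1 lower. Like Smpdl3a, Clec4f and Cd5l were called higher with GW3965 in both settings. Their log2 differences were 0.51 and 0.75 against vehicle, and 0.15 and 0.21 in Dex+GW3965 against Dex. Both were outside the list of further LXR targets above. Whether more cells or more RNA per cell raised them was not tested.

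The 5 tested endothelial markers of 8 summed to 2190 to 2197 in Dex livers, 2649 to 2680 in GW3965 livers, 1872 in both Dex+GW3965 livers and 2721 to 2823 in vehicle livers. The 8 tested stellate cell markers of 9 summed to 3428 to 3543 in Dex livers, 4412 to 4526 in GW3965 livers, 3292 to 3311 in Dex+GW3965 livers and 5628 to 5725 in vehicle livers. Both sums stood in the order vehicle, GW3965, Dex and Dex+GW3965, as did the group means of Abcg5, Abcg8 and Mylip, but not all markers did. Of the endothelial markers, none was higher and 3 lower under dexamethasone, 1 higher and 2 lower under GW3965 and none higher and 4 lower under Dex+GW3965, and of the stellate cell markers 1 was higher and 6 lower, none higher and 7 lower, and none higher and 5 lower, with no further marker higher at an unadjusted p under 0.05 in limma. Col3a1, a collagen, followed the order of the sum with group means of 10.96 in Dex livers, 11.53 in GW3965 livers, 10.91 in Dex+GW3965 livers and 11.82 in vehicle livers. Dcn, a matrix proteoglycan, was highest in Dex livers (8.41) and lowest in GW3965 livers (6.90), with 7.76 in Dex+GW3965 livers and 7.84 in vehicle livers, and Lrat, which stores retinol as esters, was lowest in Dex livers (6.71), with 7.58, 7.01 and 7.96 in GW3965, Dex+GW3965 and vehicle livers. The 3 tested bile duct markers of 6 summed to 292 to 298 in Dex livers, 306 to 317 in GW3965 livers, 484 to 498 in Dex+GW3965 livers and 339 to 362 in vehicle livers, and the 2 tested erythrocyte markers of 5 were highest in GW3965 livers. The part of these shifts in the members' differences was not tested.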

How the data were processed

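Total RNA (5 µg) of rat liver was hybridised to 8 Affymetrix arrays. The authors deposited log2 signals. Per their methods these were made from perfect-match probes whose mapping to UniGene had been checked, with MAS background subtraction. The submitters' processing notes name MAS5. Its version, and any scaling between arrays, are not given in the sources used here. Values were used as deposited. After 57 control probe sets, 31042 were left, of which 20826 have 1 symbol, 436 several and 9780 none in the platform annotation. Probe sets above their array's median on at least 2 arrays (16253) were fitted with limma 3.58.1 in R 4.3.3 (group means, moderated variance with an intensity trend, Benjamini-Hochberg adjustment, threshold 0.05) and checked on simulated data. Where 1 group mean was below 5.49, the mean of the array medians, the change is given as a bound, and where both were, none is given. Every member probe set is named. Of each other list except the cell markers, read on its brightest tested probe set, up to 3 called genes with the largest change under GW3965 and up to 3 under Dex+GW3965 are named. Cell markers were read on the same kind of probe set, but those named were not all picked by this rule, and not all of its picks are named. The 3 genes most like a member are named where its group means spanned at least 1 log2 unit. Members and lists were chosen with earlier results of these data known. RefSeq promoters come from GRCr8. The array number limits the precision. Alternatives were quantile normalization, other filters, no trend, only the groups compared, a replicate block, gene means, the methods' t-test and leaving out each array, and, chosen after seeing the data, quantile normalization for the other lists. The letters a and b are not said to pair arrays, and the main fit did not pair them (correlation of a minus b from -0.23 to 0.08 between groups, which does not settle the point). Only the replicate block and the methods' t-test used the letters, the latter on 2 log ratios, a against a and b against b. Proteins were not used here.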

Additional observations from a re-analysis of the deposited data

Results flagged for a closer look

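The limma interaction term sets the difference made by GW3965 with dexamethasone against that without it. It passed for 6 of the 14 tested probe sets over n = 2 arrays per group. Of these, 4 were higher and 2 lower, where 15.8% of all tested probe sets were higher and 6.93% lower. They belong to 3 genes. For Abca1 the interaction was -2.16 on 1382431_at, -1.51 on 1394490_at, 0.53 on 1383355_at and 0.82 on 1384381_at on the log2 scale, the first 2 of these probe sets lying above vehicle under each compound and the other 2 below it. Abcg1 on 1368103_at had 0.48. Abcg8 had 1.06, but both groups given dexamethasone lay below background, where a further fall could not be read, so this value does not show a difference.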

How the results depend on the processing

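Of 84 member differences and interactions on single probe sets, 45 passed. None of these 45 changed sign in the alternative runs on single probe sets. Leaving out 1 array in turn ended the call of 10 of them. Gene means are not counted there, and against vehicle the Abca1 mean had the sign opposite to that of its falling probe sets. Calls over all probe sets ran from 1804 to 3243 for GW3965 against vehicle (1804 without GW3965 array b and 2127 without array a) and from 2376 to 4020 for Dex+GW3965 against Dex (2376 without Dex+GW3965 array b, 2401 without Dex array b), where 3325 and 3698 were called on all arrays, and member calls against Dex from 3 to 5. The methods' t-test after Benjamini-Hochberg called 0, 3 and 2 probe sets for Dex, GW3965 and Dex+GW3965 against vehicle, 0 against Dex and 1 against GW3965, with 0 members in each. Unadjusted, it called 2909, 1896, 2333, 2076 and 2764, with 4, 4, 1, 0 and 2 members. That t-test has 1 degree of freedom, against a variance shared over all groups in limma. How much this accounts for the lower counts was not tested.

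Differences that did not pass changed sign in some settings. With quantile normalization these were Nr1h3 under GW3965 (0.0082), Nr1h2 against Dex (-0.0019), Abca1 1383355_at against GW3965 (-0.023) and the Mylip interaction (0.020). As gene means, Abca1 gave 0.047 against GW3965, and Abcg1 gave -0.019 against Dex and -0.020 against GW3965. Without 1 array, Smpdl3a ran from -0.068 to 0.071 and Abcg1 1387054_at from -0.17 to 0.068 under dexamethasone, and Nr1h2 from -0.0011 to 0.17 under Dex+GW3965. Against Dex, Nr1h2 ran from -0.063 to 0.11, Abcg1 from -0.027 to 0.18 on 1368103_at and from -0.26 to 0.038 on 1387054_at, Abcg8 from -0.54 to 0.017 and Pltp from -0.13 to 0.28. Against GW3965, Nr1h2 ran from -0.15 to 0.019, Abca1 1383355_at from -0.0093 to 0.066 and Abcg1 1387054_at from -0.26 to 0.045. The interaction ran from -0.092 to 0.057 for Mylip, from -0.16 to 0.74 for Abcg5 and from -0.21 to 0.096 for Abcg1 1387054_at. The replicate block changed none of the 84 calls, with 6618, 3099, 5800, 3522, 5654 and 3543 calls over all probe sets. The filter on mean signal left Abcg8 out.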
